A study of Homo sapiens with 22 samples.

Results

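The BCL2 family is described here through 10 genes in MDA-MB-231 cells. They are the pro-survival members BCL2, BCL2L1, MCL1 and BCL2A1, the effectors BAX and BAK1, and the BH3-only members BCL2L11, BBC3, PMAIP1 and BID. They were chosen by gene symbol, with earlier results of these data known. All 10 of the 60669 genes listed were found in each of 2 tables of FPKM (fragments scaled to transcript length and to the library's total), and 9 among the 14954 genes of another. BCL2A1 was not analysed in that smaller table. MDA-MB-231 is a human breast cancer line of basal, mesenchymal-like type.

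The study sequenced RNA of 22 libraries in 11 groups of 2, to look for genes under the control of BET bromodomain inhibitors and of the RNA mark m6A. All groups are labelled as wild-type in genotype and come from this line. In the first table, 8 libraries taken after 2-3 months of lentiviral culture held 4 groups: shM3 with METTL3-WT added back (shM3_WT), shM3 with METTL3-CD added back (shM3_CD), shM3 alone and B5. In the second table, 8 libraries taken after 3 days held JQ1, Molib and I-BET151, each at 0.5 uM, and DMSO. In the smaller table, 6 libraries taken after 3 days held MW_JQ1 and JQ1, both labelled as 0.5 uM JQ1, and CTRL. The labels do not say what B5, CD, Molib or MW stand for, nor whether paired libraries are separate cultures. The p-values therefore measure only the spread between these libraries, which may be technical.

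The family decides whether the outer mitochondrial membrane is permeabilised. BAX and BAK1 form the pore that releases cytochrome c, the pro-survival members bind and hold them, and the BH3-only members carry stress signals by neutralising the pro-survival proteins or by activating the effectors. Many carcinoma cells depend on BCL2L1 (encoding BCL-XL) and MCL1, and little on BCL2. Much of the regulation, such as the turnover of MCL1 protein, the cleavage of BID and the phosphorylation of BCL2L11 (BIM) and BAD, is not seen in RNA. METTL3 is the catalytic subunit of the m6A writer, and BET inhibitors displace bromodomain proteins from acetylated chromatin.

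The targeted gene was checked first. METTL3 had 312 and 311 FPKM in shM3_WT, 277 and 270.5 FPKM in shM3_CD, 4.39 and 4.80 FPKM in shM3, and 20.1 and 23.8 FPKM in B5. The knockdown libraries were therefore low and both add-back groups lay far above B5. HEXIM1, a gene known to rise under BET inhibitors, had 73.8 and 76.7 FPKM in JQ1, 72.9 and 69.6 FPKM in Molib, 10.3 and 6.37 FPKM in the libraries labelled I-BET151, and 26.5 and 29.4 FPKM in DMSO. The libraries labelled I-BET151 thus went the opposite way to the other inhibitors, and no direction below is read as an effect of I-BET151. The line's markers VIM, AXL, CD44, CAV1 and MSN all reached 1 FPKM, while 2 of 6 luminal markers did. Deposited FPKM summed to between 426106 and 469180 per library, except for 8657368 in B5 replicate 2, of which a single gene, PIDD1, took 8234197. FPKM scale each library to its own total, so less of a transcript per cell and fewer cells that hold it cannot be told apart, and a change in total RNA per cell is not seen.

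Before the values, promoters are shown, because they show how differently built these genes are. They belong to the 4 members with the largest log2 fold changes of FPKM + 1 in the first 2 tables. By fold of mean FPKM, BCL2, which is near 1 FPKM, moved more (4.61-fold, Molib against DMSO) than BAK1 (2.59-fold, I-BET151 label against JQ1). The BCL2 window is not shown. The windows run from 250 bases before to 50 after the RefSeq start on GRCh38.p14 and are written 5′ to 3′ on the gene's strand. Capitals mark matches on either strand to the GC box GGGCGG, the CCAAT box, the TATA box form TATAAA, the E-box CACGTG, the AP-1 site TGACTCA and the CRE site TGACGTCA, and the NF-kB consensus was searched too. Of these motifs none overlaps another, and only adjacent GGGCGG matches can share bases.
BCL2A1, chr15:79971147-79971446, minus strand: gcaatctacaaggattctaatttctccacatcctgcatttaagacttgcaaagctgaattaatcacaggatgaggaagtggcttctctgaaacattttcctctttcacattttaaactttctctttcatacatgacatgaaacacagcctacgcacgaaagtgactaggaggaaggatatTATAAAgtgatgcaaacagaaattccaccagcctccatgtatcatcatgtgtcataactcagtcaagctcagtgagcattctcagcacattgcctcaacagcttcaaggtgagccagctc
BID, chr22:17774420-17774719, minus strand: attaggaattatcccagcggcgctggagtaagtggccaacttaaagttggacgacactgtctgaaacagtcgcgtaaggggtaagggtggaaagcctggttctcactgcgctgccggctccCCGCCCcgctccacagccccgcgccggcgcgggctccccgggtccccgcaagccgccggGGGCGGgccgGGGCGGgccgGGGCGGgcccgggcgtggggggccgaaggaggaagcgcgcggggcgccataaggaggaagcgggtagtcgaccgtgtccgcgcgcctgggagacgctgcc
BAK1, chr6:33580227-33580526, minus strand: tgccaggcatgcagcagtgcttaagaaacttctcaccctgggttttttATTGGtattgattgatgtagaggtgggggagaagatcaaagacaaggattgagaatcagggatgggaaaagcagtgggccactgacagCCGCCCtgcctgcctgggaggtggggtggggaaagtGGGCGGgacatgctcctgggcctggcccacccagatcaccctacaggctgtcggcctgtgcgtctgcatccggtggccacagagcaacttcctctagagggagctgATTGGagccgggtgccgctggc
BBC3, chr19:47232618-47232917, minus strand: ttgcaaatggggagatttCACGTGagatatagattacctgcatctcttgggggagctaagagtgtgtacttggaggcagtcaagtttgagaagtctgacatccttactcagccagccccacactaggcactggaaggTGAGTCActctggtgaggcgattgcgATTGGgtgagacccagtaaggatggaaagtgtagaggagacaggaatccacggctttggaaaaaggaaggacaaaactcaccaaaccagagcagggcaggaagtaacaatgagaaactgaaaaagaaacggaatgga
The BCL2A1 window was poor in GC (41.0%, against a median of 58.7% over all promoters) and held 1 TATAAA, which starts at position -70, where 11.58% of 34796 promoters hold that motif. The BID window was 71.7% GC and held 4 GGGCGG matches, a motif present in 44.89% of promoters. BAK1 (58.7% GC) held 2 GGGCGG and 2 CCAAT matches, CCAAT being present in 34.62% of promoters. BBC3 (48.0% GC) held 1 CACGTG (7.2% of promoters), 1 TGACTCA (4.96%) and 1 CCAAT. The table holds several starts for BID and BCL2L1, and the BID window shown is 1 of 5. The BID windows differ: another, chr22:17774616-17774915, had 48.7% GC and 0 GGGCGG matches, and some others held CACGTG. NF-kB and TGACGTCA matches, held by 5.91% and 1.84% of promoters, were not found in any window of the 9 members in the table, and MCL1 has none there. A match is a description of letters only.

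FPKM are scaled to gene length, so levels can be set beside each other. BCL2L1 was the most abundant member in each of the 8 knockdown-table libraries, and BAX was second in each. MCL1 and BAK1 came next in all but the B5 libraries, where PMAIP1 stood above BAK1. BCL2 was last or next to last in all 8, and BCL2A1 ranged from rank 7 in shM3_WT to rank 10 in shM3 and B5. In the DMSO table BCL2L1 had rank 1 or 2 in each library and BAX rank 1 to 3, and in DMSO libraries they overlapped (BCL2L1 100.3 and 102 FPKM, BAX 94.3 and 127 FPKM). BCL2 stayed at or below 1.59 FPKM in both tables. The 4 pro-survival genes made up 43.0% to 54.5% of the summed FPKM of the members in knockdown-table libraries and 34.0% to 48.5% in DMSO-table libraries. BH3-only members made up 14.3% to 19.4% and 18.7% to 32.8% of it in the same tables.

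**Figure D1:**
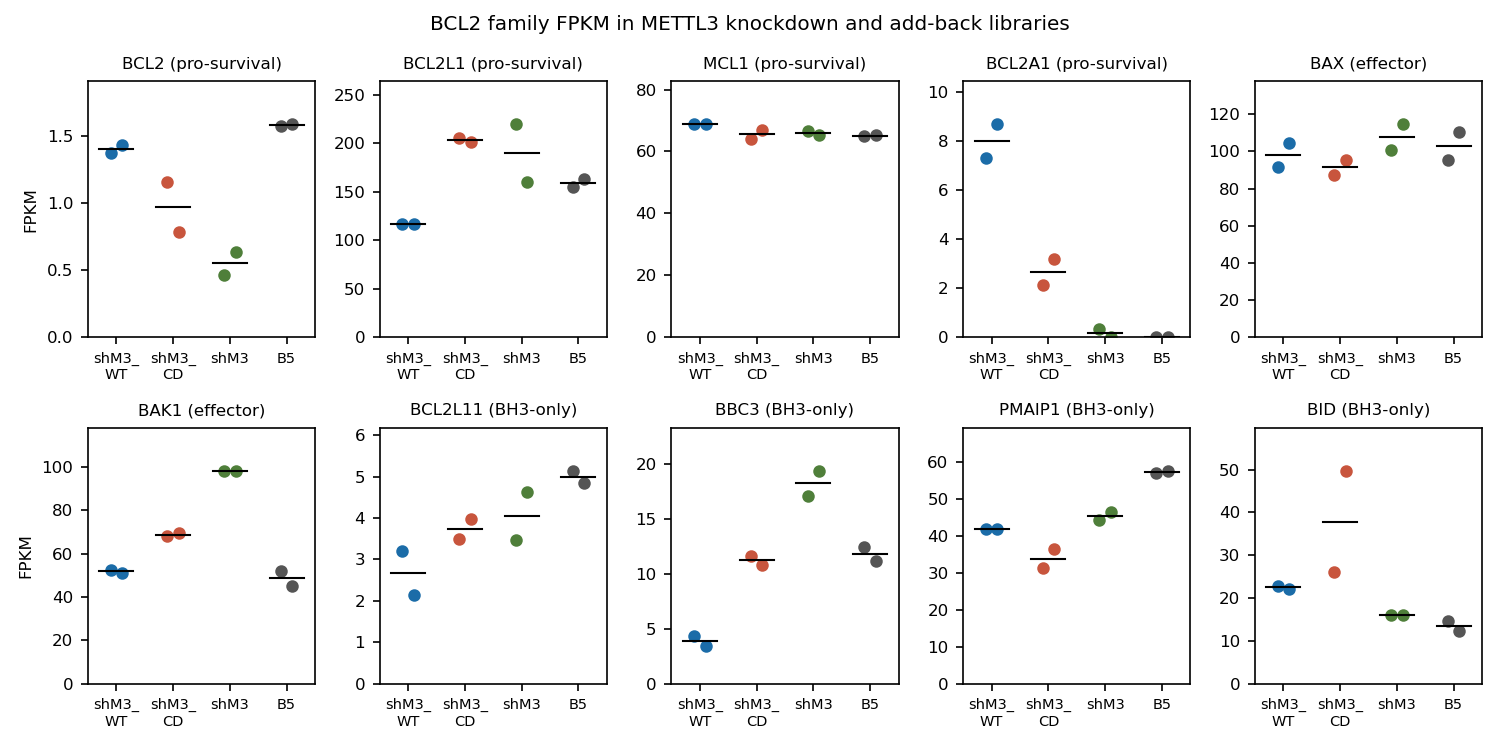
FPKM (y axis, from 0, scaled per gene) of the 10 members in each library of shM3_WT, shM3_CD, shM3 and B5; points are libraries and bars the mean of 2. BAK1 and BBC3 stand highest in shM3, BCL2A1 in shM3_WT, and MCL1 lies between 64.1 and 68.8 FPKM throughout.

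In shM3 against B5, BAK1 doubled in level, BBC3 rose, and BCL2 and PMAIP1 fell. Thus 4 of 10 members passed the test (limma, Benjamini-Hochberg adjusted over 14638 genes, under 0.05), 2 higher and 2 lower. Of all genes tested 37.8% passed, 17.9% higher and 19.9% lower, so the members' share is close to the background. The median log2 fold change of the members was 0.14, against 0.00 over all genes tested. Fold changes on the log2 scale are of FPKM + 1 and understate the change of genes near 1 FPKM.

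BAK1 (chr6:33572547-33580293, minus strand, hg38 and GENCODE release 29), the effector held in check at mitochondria by BCL2L1 and MCL1, had 98.3 and 98.2 FPKM in shM3, against 52.1 and 45.2 FPKM in B5. The groups lay far apart and the means differed 2.02-fold (log2 fold change 1.00 ± 0.08, SE, adjusted p = 0.000225). The call held without each of the 4 libraries in turn. BAX, the other effector, had 100.6 and 115 FPKM in shM3 and 95.3 and 110.3 FPKM in B5, overlapping ranges (0.07 ± 0.11, adjusted p = 0.68).

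Among the BH3-only genes, BBC3 (PUMA, chr19:47220822-47232766, minus strand), a broad binder of pro-survival proteins, had 17.1 and 19.4 FPKM in shM3 and 12.5 and 11.2 FPKM in B5. Both shM3 libraries were higher (log2 fold change 0.58 ± 0.12, adjusted p = 0.0099), and the call was lost without shM3 replicate 2 (adjusted p = 0.0614). PMAIP1 (NOXA, chr18:59899948-59904306, plus strand), which binds mainly MCL1 and BCL2A1, had 44.3 and 46.4 FPKM in shM3 and 57.0 and 57.6 FPKM in B5. It was lower in both shM3 libraries (-0.33 ± 0.09, adjusted p = 0.0225), but without any 1 of the 4 libraries the call was lost (adjusted p = 0.0618 to 0.109). BCL2L11 (BIM) had 3.48 and 4.63 FPKM in shM3 and 5.14 and 4.85 FPKM in B5 (adjusted p = 0.299). BID had 16.1 and 16.0 FPKM in shM3 and 14.5 and 12.4 FPKM in B5 (adjusted p = 0.495).

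Of the pro-survival genes, BCL2 (chr18:63123346-63320128, minus strand) had 0.463 and 0.636 FPKM in shM3 and 1.58 and 1.59 FPKM in B5. BCL2 entered the test (1 FPKM or more in 2 libraries) only through groups other than shM3, which favours a lower call there. It was lower in both shM3 libraries (-0.74 ± 0.15, adjusted p = 0.00877), a call lost without shM3 replicate 1 (adjusted p = 0.0505). BCL2L1 had 220.0 and 159.8 FPKM in shM3 and 155 and 164 FPKM in B5, so 1 shM3 library lay among the B5 values (adjusted p = 0.224). MCL1 had 66.6 and 65.4 FPKM in shM3 and 65.0 and 65.3 FPKM in B5, and the 95% interval of its log2 fold change was -0.14 to 0.17. BCL2A1 was listed at 0.331 and 0 FPKM in shM3 and at 0 in both B5 libraries, and no fold is given. In all, 7 of 10 members had groups that do not overlap, as did 69.1% of the genes tested.

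The other cell death genes listed changed in both directions in shM3 against B5, where 37.8% of all genes passed, 17.9% higher and 19.9% lower. Of 9 tested other BCL2 family genes, 5 rose and 1 fell (median log2 fold change 0.28, against 0.00 over all genes). BNIP3, a mitochondrial member linked to mitophagy, had 124 and 121 FPKM in shM3 and 51.9 and 47.7 FPKM in B5 (1.28 ± 0.07, adjusted p = 5.08e-05), and BIK, a BH3-only gene, had 6.42 and 6.25 FPKM in shM3 and 2.88 and 1.61 FPKM in B5 (adjusted p = 0.00267). BMF, also BH3-only, fell to 5.39 and 4.13 FPKM in shM3, against 8.77 and 9.60 FPKM in B5 (adjusted p = 0.00794). Of 17 apoptosome, caspase and inhibitor-of-apoptosis genes, 5 rose and 3 fell (median -0.06). DIABLO, which antagonises inhibitors of apoptosis, had 37.7 and 34.7 FPKM in shM3 and 15.3 and 14.1 FPKM in B5 (adjusted p = 0.00012). Of 11 death receptor genes, 1 rose and 4 fell (median -0.12), led by the ligand TNFSF10 (TRAIL) with 13.3 and 15.6 FPKM in shM3 and 44.2 and 54.2 FPKM in B5 (adjusted p = 0.000219). These calls held without each of the 4 libraries.

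Among genes that act on the family in shM3 against B5, 3 of 10 partners and turnover factors rose and 3 fell (median 0.24). The share of all genes that passed was 37.8%. USP9X, a deubiquitinase of MCL1, had 16.2 and 15.7 FPKM in shM3 and 30.2 and 37.7 FPKM in B5 (adjusted p = 0.000657). Of 13 transcription factors, 3 rose and 4 fell (median -0.25), and E2F1, a cell cycle factor that can act on BH3-only genes, had 9.12 and 9.98 FPKM in shM3 and 42.8 and 37.7 FPKM in B5 (adjusted p = 4.22e-05). Both calls held without each library. Of the line's own markers, 4 of 5 fell, with a sum of 1200 to 1221 FPKM in shM3 and 1657 to 1714 FPKM in B5, and their part in the results was not tested.

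Adding METTL3-WT back to shM3 cells went with lower BAK1, BBC3 and BCL2L1 and with higher BCL2A1 and BCL2. In shM3_WT against shM3, 2 of 10 members rose and 3 fell, where 39.4% of genes tested passed, 16.7% higher and 22.7% lower (median of the members -0.12, of all genes -0.08). The 2 that rose, BCL2A1 and BCL2, were under 1 FPKM in shM3 and entered the test only through other groups. The filter therefore favours both rises. The libraries of the groups were apart for 9 of 10 members, against 72.6% of all genes. The same shM3 libraries serve in this comparison and in the previous one, so the opposite signs of BAK1, BBC3 and BCL2 are not independent of each other.

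BCL2A1 (BFL-1, chr15:79960889-79971446, minus strand), a pro-survival gene best known from blood cells and melanoma and as a target of NF-kB, had 7.30 and 8.69 FPKM in shM3_WT, against 0.331 and 0 FPKM in shM3. Both shM3_WT libraries were far higher (log2 fold change 2.96 ± 0.20, adjusted p = 0.000101). BBC3 had 4.32 and 3.46 FPKM in shM3_WT and 17.1 and 19.4 FPKM in shM3, 4.70-fold lower by the means (-1.98 ± 0.12, adjusted p = 7.12e-05). BAK1 had 52.4 and 51.2 FPKM in shM3_WT and 98.3 and 98.2 FPKM in shM3 (-0.91 ± 0.08, adjusted p = 3e-04). These 3 calls, the clearest of the comparison, held without each library.

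BCL2L1 (chr20:31664452-31723989, minus strand) had 117 and 116 FPKM in shM3_WT and 220.0 and 159.8 FPKM in shM3, with both shM3_WT libraries lower (-0.68 ± 0.14, adjusted p = 0.0078), and this held without each library. An antisense gene, ABALON, shares 1424 exon bases with BCL2L1 and had 37.5 to 67.0 FPKM in this table, and whether strand was used in counting is not given in the sources used here. BCL2 had 1.37 and 1.43 FPKM in shM3_WT and 0.463 and 0.636 FPKM in shM3 (0.64 ± 0.15, adjusted p = 0.0152). That call was lost without shM3_WT replicate 1 (adjusted p = 0.0595), shM3_WT replicate 2 (0.0697) or shM3 replicate 1 (0.0775). BCL2L11, which shares 727 exon bases with the antisense MIR4435-2HG, had 3.20 and 2.14 FPKM in shM3_WT and did not pass (-0.47 ± 0.18, adjusted p = 0.0769), and neither did PMAIP1 (41.8 and 41.8 FPKM, adjusted p = 0.329) or BID (22.9 and 22.0 FPKM, adjusted p = 0.201). MCL1 had 68.8 and 68.7 FPKM and BAX 91.6 and 105 FPKM in shM3_WT (95% intervals of the log2 fold change -0.10 to 0.21 for MCL1 and -0.40 to 0.14 for BAX).

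In shM3_WT against shM3, 1 of 9 other BCL2 family genes rose and 4 fell (median -0.35, against -0.08 over all genes). Of all genes 39.4% passed, 16.7% higher and 22.7% lower. BMF had 1.37 and 0.844 FPKM in shM3_WT and 5.39 and 4.13 FPKM in shM3 (-1.45 ± 0.17, adjusted p = 0.00073). Among 17 apoptosome and caspase genes 5 rose and 5 fell (median 0.13). Both genes with the smallest p there were inhibitors of apoptosis: BIRC5 (survivin) had 32.2 and 29.1 FPKM in shM3_WT and 8.26 and 10.4 FPKM in shM3 (adjusted p = 0.00013), and BIRC3, an NF-kB target, had 22.2 and 25.3 FPKM in shM3_WT and 5.61 and 7.84 FPKM in shM3 (adjusted p = 0.000244). Of 11 death receptor genes 1 rose and 1 fell (median -0.20), of 10 partners 2 rose and 3 fell (median 0.02), and of 13 transcription factors 3 rose and 4 fell (median -0.25).

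Adding METTL3-CD back went with changes in 5 members too, 2 higher and 3 lower than in shM3, where 11.4% of all genes passed, 6.82% higher and 4.59% lower. The members' share was above that background, though only the call of BCL2A1 held without each library. Over all genes, too, fewer passed when single libraries were left out. The median of the members was -0.05, against 0.01 over all genes. BCL2A1 had 2.14 and 3.17 FPKM in shM3_CD and 0.331 and 0 FPKM in shM3 (1.65 ± 0.20, adjusted p = 0.00421), and this call held without each library. It is favoured by the filter, because BCL2A1 entered the test only through the add-back groups. BAK1 had 68.0 and 69.3 FPKM in shM3_CD and 98.3 and 98.2 FPKM in shM3 (-0.51 ± 0.08, adjusted p = 0.0116). BBC3 had 11.6 and 10.9 FPKM in shM3_CD and 17.1 and 19.4 FPKM in shM3 (-0.65 ± 0.12, adjusted p = 0.0192). Neither call held without any 1 of the 4 libraries (adjusted p = 0.0642 to 0.0726 for BAK1 and 0.0605 to 0.109 for BBC3).

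PMAIP1 had 31.3 and 36.3 FPKM in shM3_CD and 44.3 and 46.4 FPKM in shM3 (-0.42 ± 0.09, adjusted p = 0.0261). That call was lost without shM3_CD replicate 1 (adjusted p = 0.128), shM3 replicate 1 (0.096) or shM3 replicate 2 (0.133). BID (chr22:17734138-17774770, minus strand), which links death receptors to mitochondria, had 26.0 and 49.7 FPKM in shM3_CD and 16.1 and 16.0 FPKM in shM3. Both shM3_CD libraries were higher but differed widely from each other (1.12 ± 0.26, adjusted p = 0.0379), and the call was lost without shM3 replicate 1 (adjusted p = 0.14) or shM3 replicate 2 (0.141). BCL2L1 had 205 and 201 FPKM in shM3_CD, beside the 220.0 and 159.8 FPKM of shM3 (adjusted p = 0.635). BCL2 had 1.16 and 0.784 FPKM (adjusted p = 0.193), and BCL2L11, BAX and MCL1 did not pass (adjusted p = 0.803, 0.237 and 0.948). For 7 of 10 members the groups did not overlap, against 59.8% of all genes.

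METTL3 RNA was of the same order in both add-back groups, which were also compared directly. In shM3_WT against shM3_CD, 2 of 10 members were higher and 3 lower in shM3_WT, where 25.9% of genes passed, 10.2% higher and 15.7% lower (median of the members -0.16, of all genes -0.08). BCL2L1 had 117 and 116 FPKM in shM3_WT and 205 and 201 FPKM in shM3_CD, a 1.74-fold lower mean (-0.80 ± 0.14, adjusted p = 0.00736). BBC3 had 4.32 and 3.46 FPKM in shM3_WT and 11.6 and 10.9 FPKM in shM3_CD (-1.33 ± 0.12, adjusted p = 0.00109). BCL2A1 had 7.30 and 8.69 FPKM in shM3_WT and 2.14 and 3.17 FPKM in shM3_CD, a 3.01-fold higher mean (1.31 ± 0.20, adjusted p = 0.00521). These 3 calls held without each library, though that of BCL2A1 was lost with a pseudocount of 0.1 (adjusted p = 0.121).

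BAK1 had 52.4 and 51.2 FPKM in shM3_WT and 68.0 and 69.3 FPKM in shM3_CD (-0.40 ± 0.08, adjusted p = 0.0152), and the call was lost without any 1 of the 4 libraries (adjusted p = 0.0576 to 0.0758). PMAIP1 had 41.8 and 41.8 FPKM in shM3_WT and 31.3 and 36.3 FPKM in shM3_CD (0.30 ± 0.09, adjusted p = 0.0433). It did not pass without shM3_WT replicate 1 (adjusted p = 0.135), shM3_WT replicate 2 (0.138) or shM3_CD replicate 1 (0.205). BID had 22.9 and 22.0 FPKM in shM3_WT and 26.0 and 49.7 FPKM in shM3_CD and did not pass (-0.66 ± 0.26, adjusted p = 0.107), nor did BCL2 (0.29 ± 0.15, adjusted p = 0.202) or BCL2L11 (-0.38 ± 0.18, adjusted p = 0.16). For 9 of 10 members, and 66.6% of all genes, the groups were apart.

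Outside the members, 1 of 9 other BCL2 family genes was higher and 4 lower in shM3_WT than in shM3_CD (median -0.30). Of all genes 25.9% passed, 10.2% higher and 15.7% lower. BNIP3 had 92.9 and 94.1 FPKM in shM3_WT and 146 and 149 FPKM in shM3_CD (-0.65 ± 0.07, adjusted p = 0.00161), and its relative BNIP3L 28.1 and 30.4 FPKM in shM3_WT and 46.9 and 48.9 FPKM in shM3_CD (adjusted p = 0.00161). Of 11 death receptor genes 1 was higher and 4 lower (median -0.24), and TNFSF10 had 12.8 and 10.7 FPKM in shM3_WT and 25.3 and 28.0 FPKM in shM3_CD (adjusted p = 0.00252). Of 17 apoptosome and caspase genes 3 were higher and 3 lower (median 0.04), with BIRC5 at 32.2 and 29.1 FPKM in shM3_WT and 17.4 and 15.5 FPKM in shM3_CD (adjusted p = 0.00373). Of the 13 transcription factors 2 were higher and 1 lower, E2F1 leading with 40.2 and 37.9 FPKM in shM3_WT and 15.7 and 17.5 FPKM in shM3_CD (adjusted p = 0.000834). These calls held without each library. The line's markers were higher in 4 of 5, with a sum of 1890 to 2029 FPKM in shM3_WT and 1067 to 1200 FPKM in shM3_CD, and their part in the results was not tested.

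**Figure D2:**
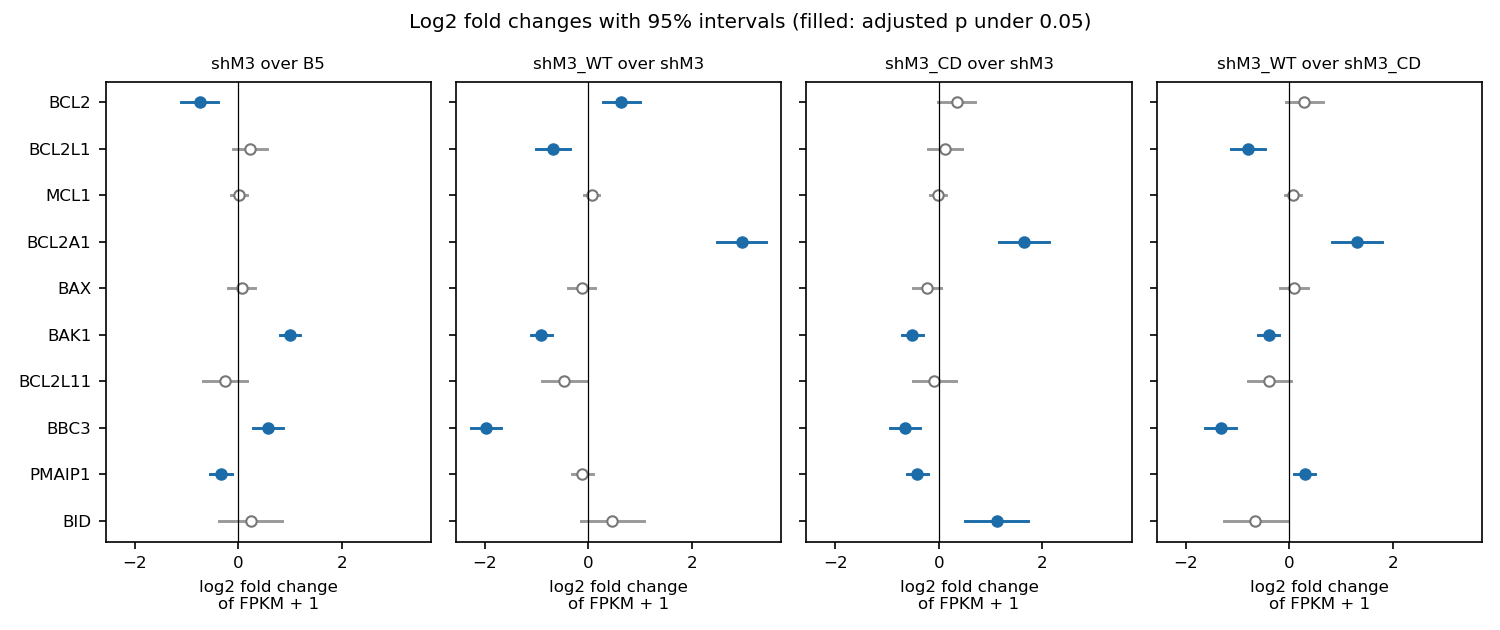
Log2 fold change of FPKM + 1 (x axis) with its 95% interval for the 10 members (y axis) in 4 comparisons of the knockdown table; filled points passed an adjusted p of 0.05, and BCL2A1 is not drawn for shM3 over B5 because B5 is listed at 0. BCL2A1 lies at 2.96, 1.65 and 1.31 in the comparisons of shM3_WT with shM3, shM3_CD with shM3 and shM3_WT with shM3_CD, and BBC3 at -1.98, -0.65 and -1.33.

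Against B5, some members differed in each add-back group and others did not pass. In shM3_WT, 1 member was higher and 4 lower than in B5, where 30% of genes passed, 11.8% higher and 18.2% lower. BCL2A1 (7.30 and 8.69 FPKM, adjusted p = 0.000162) stood above B5, where it was listed at 0, and no fold is given. It entered the test only through the add-back groups, so its calls over B5 in both of them are favoured by the filter. BBC3 (-1.40 ± 0.12, adjusted p = 0.000469) and PMAIP1 (-0.45 ± 0.09, adjusted p = 0.0092) stood below B5, and these 3 calls held without each library. BCL2L11 (-0.72 ± 0.18, adjusted p = 0.0226) was also lower, but not without shM3_WT replicate 2 (adjusted p = 0.11), B5 replicate 1 (0.0811) or B5 replicate 2 (0.0712). BCL2L1 (-0.45 ± 0.14, adjusted p = 0.0468) lost its call without any 1 of the 4 libraries (adjusted p = 0.0977 to 0.155). BAK1, with 52.4 and 51.2 FPKM in shM3_WT and 52.1 and 45.2 FPKM in B5, overlapped B5 (95% interval -0.10 to 0.29). BAX overlapped too, and the groups were apart for the other 8 of 10 members and for 65.7% of all genes.

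In shM3_CD, 3 members were higher and 1 lower than in B5, where 29.9% of genes passed, 14.8% higher and 15.2% lower. BCL2A1 (2.14 and 3.17 FPKM, listed at 0 in B5, adjusted p = 0.00114) and BAK1 (0.49 ± 0.08, adjusted p = 0.0057) were higher and PMAIP1 (-0.75 ± 0.09, adjusted p = 0.00141) lower, and these calls held without each library. BID (1.36 ± 0.26, adjusted p = 0.00886) was higher in both shM3_CD libraries, and did not pass once B5 replicate 2 was left out (adjusted p = 0.0505). For 7 of 10 members shM3_CD and B5 were apart, as for 66.3% of all genes. PMAIP1 was thus below B5 in all 6 libraries that carry shM3 by label. Blood cell markers summed to 5.10 to 5.83 FPKM in shM3_WT, 6.49 to 6.74 in shM3_CD, 5.29 to 5.44 in shM3 and 11.0 to 21.6 in B5, with CD3E at 0 in all 8 libraries and PTPRC at most 0.29 FPKM. The sum was highest in B5 and came mostly from CD14 (4.28 to 16.8 FPKM over the libraries) and LYZ (0.324 to 4.50 FPKM). The part of these markers in the results was not tested.

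BCL2A1 had the widest range of group means of the members in this table on the log2 scale. Over the 8 libraries and 9295 genes with a mean of at least 5 FPKM, the genes most like it by Pearson correlation were EEF1AKNMT (r = 0.982), TMEM43 (0.981) and THEM6 (0.978). With 2 libraries in each group the points share 4 conditions, and such a ranking is a description only. The motif GGACT, the commonest of the sequences in which METTL3 deposits m6A, was counted in 1 annotated transcript of each member. Its density was 3.81 per kilobase in BBC3, above 99.5% of 19702 genes, 2.30 in BCL2L1, 2.26 in BAK1 and 2.00 in BID, against a median of 0.93 over all genes. MCL1 had 1.78 and BAX 1.47 per kilobase, and neither passed in any comparison of the knockdown table. BCL2L11 had 1.15, PMAIP1 1.03, BCL2A1 0.97 and BCL2 0.40 per kilobase. No m6A was measured here, and a link between this density and the changes was not tested.

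In the inhibitor libraries, BID and BCL2A1 fell with JQ1 and with Molib. BCL2 was lower too, but it entered the test only through DMSO, which holds its only values above 1 FPKM. Its place among the members counted as lower than DMSO below is therefore favoured by the filter. Under the I-BET151 label BID was higher than in DMSO, and BCL2A1 and BCL2 did not pass. JQ1 is a thienotriazolodiazepine and I-BET151 a dimethylisoxazole compound of another scaffold, and the structure of Molib is not given by the labels. In JQ1 against DMSO, 6 of 10 members fell and 0 rose (adjusted over 14936 genes), where 35.1% of genes passed in either direction with 14.5% higher and 20.6% lower. The median log2 fold change was -0.37 for the members and -0.04 for all genes. The 2 JQ1 libraries carry no replicate number in the table and are called a and b.

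**Figure D3:**
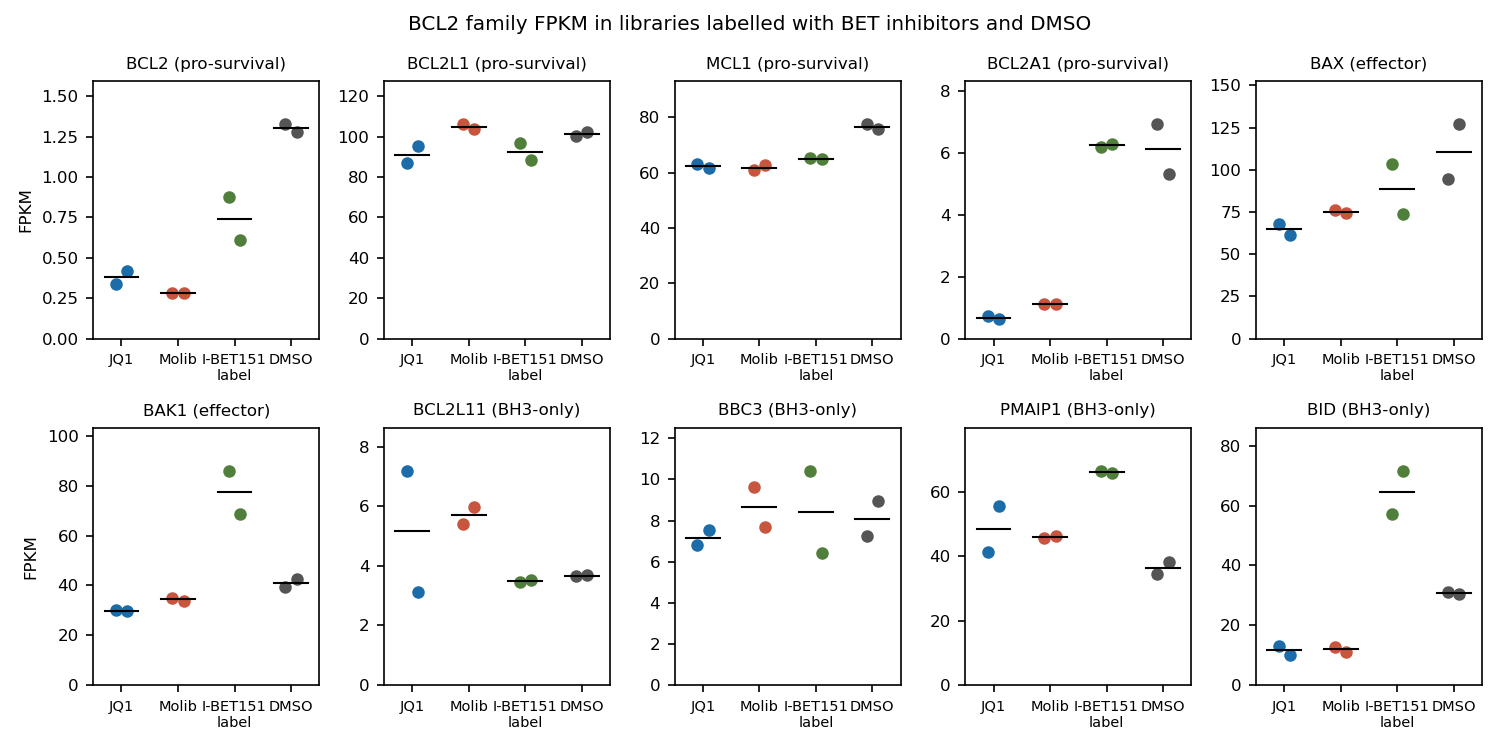
FPKM (y axis, from 0, scaled per gene) of the 10 members in each library of JQ1, Molib, the I-BET151 label and DMSO; points are libraries and bars the mean of 2. BID lies between 10.1 and 13.2 FPKM in JQ1 and Molib, at 57.3 and 71.7 under the I-BET151 label and at 31.2 and 30.5 in DMSO.

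BCL2A1 had 0.734 and 0.616 FPKM in JQ1, against 6.91 and 5.32 FPKM in DMSO, a 9.06-fold lower mean (-2.08 ± 0.14, adjusted p = 0.000132). In Molib it had 1.12 and 1.1 FPKM (-1.74 ± 0.14 against DMSO, adjusted p = 0.000227). All 4 libraries of the 2 inhibitors lay well below DMSO, and both calls held without each library. Blood cell markers moved alongside: 1 of 6, CD14, reached 1 FPKM, and their sum was 0.722 to 1.29 FPKM in JQ1, 1.23 to 1.33 in Molib, 5.44 to 5.96 under the I-BET151 label and 4.92 to 5.43 in DMSO. CD3E was at 0 in all 8 libraries and PTPRC at most 0.204 FPKM, and the part of these markers in the result was not tested.

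BID had 13.2 and 10.1 FPKM in JQ1, 12.6 and 11.2 FPKM in Molib, and 31.2 and 30.5 FPKM in DMSO. It fell 2.65-fold with JQ1 (-1.35 ± 0.16, adjusted p = 0.000945) and 2.60-fold with Molib (-1.31 ± 0.16, adjusted p = 0.000988), and both calls held without each library. BCL2 had 0.339 and 0.419 FPKM in JQ1, 0.281 and 0.284 FPKM in Molib, and 1.33 and 1.28 FPKM in DMSO. It was lower in all 4 inhibitor libraries (JQ1 -0.74 ± 0.15, adjusted p = 0.0083; Molib -0.84 ± 0.15, adjusted p = 0.00469). The JQ1 call was lost without JQ1 library a (adjusted p = 0.0526), and BCL2 left the test for both inhibitors without either DMSO library, since DMSO holds its only values above 1 FPKM.

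MCL1 (chr1:150574551-150579738, minus strand), the short-lived pro-survival protein, had 63.1 and 61.6 FPKM in JQ1, 61.0 and 62.7 FPKM in Molib, and 77.4 and 75.7 FPKM in DMSO. The fall was small (JQ1 -0.29 ± 0.08, adjusted p = 0.03; Molib -0.30 ± 0.08, adjusted p = 0.026), and neither call held without any 1 of its 4 libraries (adjusted p = 0.107 to 0.145 for JQ1 and 0.094 to 0.127 for Molib). BCL2L1 did not pass, with 86.9 and 95.1 FPKM in JQ1, 106 and 104 FPKM in Molib, and 100.3 and 102 FPKM in DMSO (adjusted p = 0.237 for JQ1 and 0.714 for Molib).

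Both effectors passed with JQ1. BAX (chr19:48954815-48961798, plus strand) had 67.9 and 61.4 FPKM in JQ1 and 94.3 and 127 FPKM in DMSO (-0.75 ± 0.19, adjusted p = 0.0205), a call lost without JQ1 library a (adjusted p = 0.0651), JQ1 library b (0.103) or DMSO replicate 2 (0.119). BAK1 had 30.0 and 29.8 FPKM in JQ1 and 39.4 and 42.5 FPKM in DMSO (-0.44 ± 0.12, adjusted p = 0.0281), lost without any 1 of the 4 libraries (adjusted p = 0.0776 to 0.14). In Molib, BAX had 75.9 and 74.4 FPKM (-0.54 ± 0.19, adjusted p = 0.0645) and BAK1 35.0 and 33.8 FPKM (-0.24 ± 0.12, adjusted p = 0.16).

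The other BH3-only genes did not pass with either inhibitor. PMAIP1 had 41.4 and 55.7 FPKM in JQ1, 45.8 and 46.3 FPKM in Molib, and 34.4 and 38.3 FPKM in DMSO, with all inhibitor libraries above DMSO (adjusted p = 0.0672 for JQ1 and 0.109 for Molib). BCL2L11 (chr2:111119378-111168447, plus strand) had 7.19 and 3.13 FPKM in JQ1, 5.42 and 5.99 FPKM in Molib, and 3.67 and 3.68 FPKM in DMSO. The JQ1 libraries lay on both sides of DMSO (0.32 ± 0.28, adjusted p = 0.414), and Molib above it (0.52 ± 0.28, adjusted p = 0.191). BBC3 overlapped DMSO throughout, with 6.83 and 7.52 FPKM in JQ1, 9.63 and 7.67 FPKM in Molib, and 7.23 and 8.94 FPKM in DMSO. In Molib against DMSO, 4 of 10 members fell and 0 rose, where 35.3% of genes passed, 14.8% higher and 20.5% lower. Groups did not overlap for 8 of 10 members with JQ1 (73.8% of all genes) and 9 of 10 with Molib (73.1%).

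At the same dose and time, Molib and JQ1 differed in 0 of 10 members by limma, with 0 members at an unadjusted p under 0.05. Over all 14936 genes 0 passed (0%) and 1227 had an unadjusted p under 0.05. The 95% interval of the log2 difference, Molib over JQ1, was -0.33 to 0.41 for BID, -0.45 to 0.24 for BCL2, -0.21 to 0.18 for MCL1 and 0.00 to 0.67 for BCL2A1. The libraries of Molib and JQ1 were apart for 6 of 10 members and 46.4% of all genes. Differences of a size within those intervals are not excluded by these libraries.

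In the libraries labelled I-BET151, BID, BAK1 and PMAIP1 were higher than in DMSO, and no member passed as lower. That is 3 of 10 members higher and 0 lower, where 28% of genes passed, 13.9% higher and 14.1% lower. BID had 57.3 and 71.7 FPKM under the I-BET151 label and 31.2 and 30.5 FPKM in DMSO, a 2.09-fold higher mean (1.03 ± 0.16, adjusted p = 0.00377). BAK1 had 86.1 and 68.7 FPKM under the I-BET151 label and 39.4 and 42.5 FPKM in DMSO (0.89 ± 0.12, adjusted p = 0.00243). PMAIP1 had 66.5 and 65.8 FPKM under the I-BET151 label and 34.4 and 38.3 FPKM in DMSO (0.85 ± 0.14, adjusted p = 0.0056). All 6 values lay above DMSO, and the 3 calls held without each library. Of the line's 5 markers, 2 were higher and 3 lower under the I-BET151 label than in DMSO. Their sum was 1171 to 1315 FPKM under the label and 1977 to 2002 FPKM in DMSO, and their part in the result was not tested.

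BCL2A1 had 6.18 and 6.28 FPKM under the I-BET151 label, between its DMSO values (95% interval -0.31 to 0.37). BCL2 had 0.876 and 0.608 FPKM (-0.41 ± 0.15, adjusted p = 0.0797) and MCL1 65.3 and 64.8 FPKM (-0.23 ± 0.08, adjusted p = 0.0745), below DMSO in both libraries without passing. BCL2L1 had 96.6 and 88.4 FPKM, BAX 104 and 73.6 FPKM, BBC3 10.4 and 6.40 FPKM, and BCL2L11 3.46 and 3.51 FPKM under the I-BET151 label (adjusted p = 0.329, 0.245, 0.95 and 0.893). These libraries and DMSO were apart for 7 of 10 members and 63.4% of all genes.

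Tested directly, the libraries labelled I-BET151 were higher than JQ1 in 4 of 10 members and lower in 0, where 44.6% of genes passed, 24.6% higher and 20.1% lower. Against Molib they were higher in 5 of 10 and lower in 0, where 43.5% passed, 23.6% higher and 19.9% lower. BID was 5.55-fold higher than in JQ1 (2.38 ± 0.16, adjusted p = 5.29e-05) and 5.42-fold higher than in Molib (2.34 ± 0.16, adjusted p = 5.59e-05). BCL2A1 was 9.23-fold higher than in JQ1 (2.11 ± 0.14, adjusted p = 6.02e-05) and 5.60-fold higher than in Molib (adjusted p = 0.000123), and BAK1 2.59-fold higher than in JQ1 (1.33 ± 0.12, adjusted p = 0.000206) and 2.25-fold higher than in Molib (adjusted p = 0.000412). These calls held without each library. PMAIP1 passed against JQ1 (0.45 ± 0.14, adjusted p = 0.0361), but not without I-BET151-labelled replicate 1 (0.0912), I-BET151-labelled replicate 2 (0.0837) or JQ1 library a (0.196). Against Molib it passed too (adjusted p = 0.0231), but not without any 1 of the 4 libraries (adjusted p = 0.0613 to 0.0912). BCL2 passed against Molib only among these pairs (0.44 ± 0.15, adjusted p = 0.0467, against 0.33 ± 0.15 and adjusted p = 0.106 for JQ1), and the call was lost without I-BET151-labelled replicate 1 (0.175), Molib replicate 1 (0.133) or Molib replicate 2 (0.132). The libraries were apart for 7 of 10 members against JQ1 (71.3% of all genes) and 8 of 10 against Molib (70.6%).

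**Figure D4:**
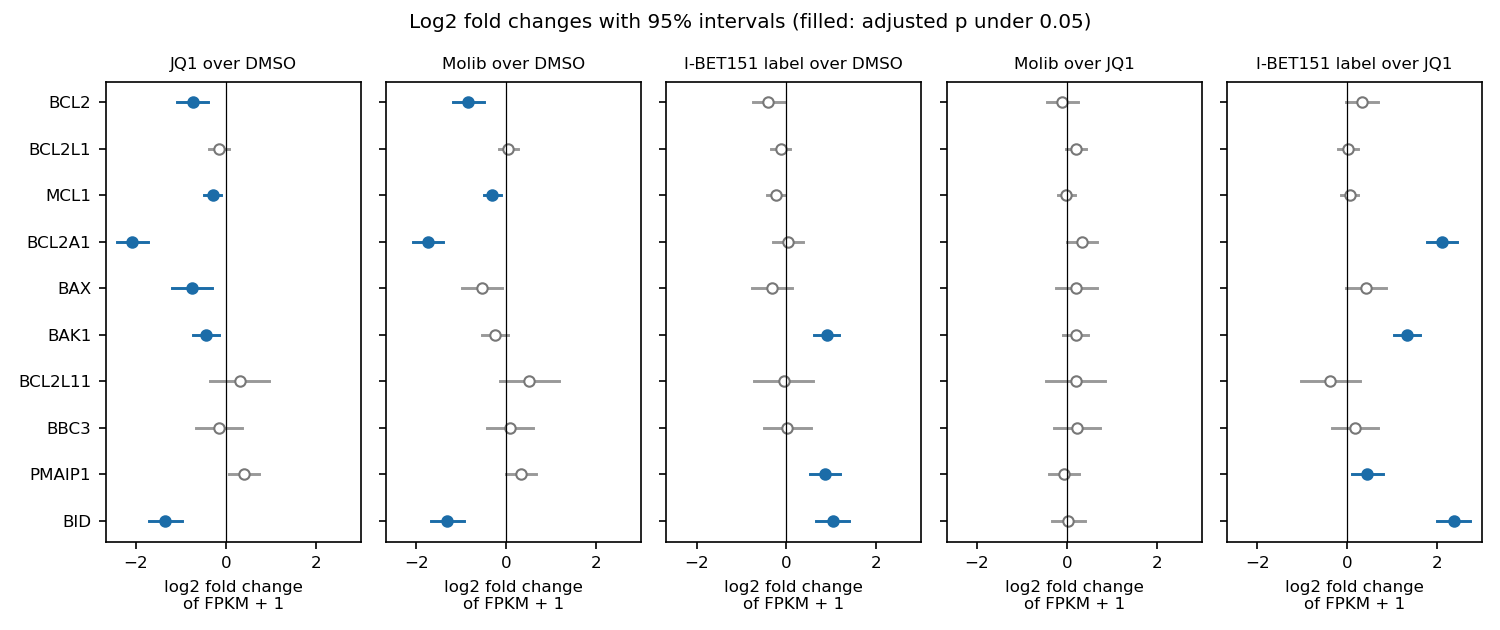
Log2 fold change of FPKM + 1 (x axis) with its 95% interval for the 10 members (y axis) in 5 comparisons of the inhibitor table; filled points passed an adjusted p of 0.05. JQ1 and Molib share BID at -1.35 and -1.31 against DMSO, while the libraries with the I-BET151 label have it at 1.03.

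Outside the members, of 11 death receptor genes 2 rose and 4 fell with JQ1 (median -0.45, against -0.04 over all genes), and 2 rose and 6 fell with Molib (median -0.64, against -0.03), where 35.1% of all genes passed with JQ1 and 35.3% with Molib. TNFRSF10A, a TRAIL receptor, had 4.42 and 4.42 FPKM in JQ1, 4.53 and 4.83 FPKM in Molib, and 12.2 and 13.2 FPKM in DMSO (adjusted p = 0.000183 for JQ1 and 0.000214 for Molib). FADD, the adaptor of those receptors, had 27.0 and 27.0 FPKM in JQ1, 27.6 and 29.8 FPKM in Molib, and 43.2 and 51.4 FPKM in DMSO (adjusted p = 0.00224 and 0.00333). TRADD rose, with 17.4 and 17.7 FPKM in JQ1, 20.0 and 22.1 FPKM in Molib, and 9.20 and 11.5 FPKM in DMSO (adjusted p = 0.00555 and 0.0016). Under the I-BET151 label 5 of the 11 were higher and 1 lower than in DMSO (median 0.56), led by TNFSF10 with 13.4 and 13.5 FPKM under the label and 3.84 and 4.84 FPKM in DMSO (adjusted p = 0.000504). Of all genes 28% passed under that label against DMSO. The calls named here held without each library.

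Of 17 apoptosome and caspase genes, 2 rose and 5 fell with JQ1 (median -0.27), and 2 rose and 5 fell with Molib (median -0.21). Of all genes 35.1% passed with JQ1 and 35.3% with Molib. BIRC5 had 12.8 and 11.9 FPKM in JQ1, 12.0 and 16.9 FPKM in Molib, and 30.3 and 47.1 FPKM in DMSO (adjusted p = 0.00259 and 0.00429). CASP9, the initiator caspase of the apoptosome, rose, with 8.36 and 8.17 FPKM in JQ1, 11.2 and 13.2 FPKM in Molib, and 4.65 and 4.29 FPKM in DMSO (adjusted p = 0.00327 and 0.000381). BIRC3 fell to 6.41 and 6.77 FPKM in JQ1 and 6.67 and 6.33 FPKM in Molib, against 11.2 and 11.9 FPKM in DMSO (adjusted p = 0.00501 and 0.00431), and stood at 24.5 and 30.7 FPKM under the I-BET151 label (adjusted p = 0.000991 against DMSO). These calls held without each library. Under that label 5 of the 17 were higher and 3 lower than in DMSO (median 0.03), where 28% of all genes passed.

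Of 9 other BCL2 family genes, 2 rose and 2 fell with JQ1 (median 0.03), 2 rose and 0 fell with Molib (median -0.02), and 4 rose and 1 fell under the I-BET151 label (median 0.52). Over all genes 35.1%, 35.3% and 28% passed, in the same order of groups. BNIP3L had 41.6 and 41.5 FPKM in JQ1, 37.9 and 37.3 FPKM in Molib, 38.5 and 36.9 FPKM under the I-BET151 label, and 26.6 and 25.5 FPKM in DMSO (adjusted p = 0.00161, 0.00403 and 0.0055). BMF had 6.49 and 6.48 FPKM under the I-BET151 label and 1.53 and 1.15 FPKM in DMSO (1.68 ± 0.17, adjusted p = 0.0007). Of 13 transcription factors, 1 rose and 4 fell with JQ1 (median 0.01), 2 rose and 4 fell with Molib (median 0.05) and 1 rose and 3 fell under the I-BET151 label (median 0.13). NFKB1, a subunit of NF-kB, had 12.2 and 11.9 FPKM in JQ1, 12.1 and 13.2 FPKM in Molib, and 23.9 and 26.7 FPKM in DMSO (adjusted p = 0.000508 and 0.000636), and E2F1 10.2 and 11.9 FPKM in JQ1, 10.5 and 11.7 FPKM in Molib, and 39.2 and 41.0 FPKM in DMSO (adjusted p = 0.000132 and 0.000111). These calls held without each library.

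Of 10 partners and turnover factors, 2 rose and 2 fell with JQ1 (median 0.17), 3 rose and 2 fell with Molib (median 0.16), and 2 rose and 0 fell under the I-BET151 label (median 0.10). Over all genes 35.1%, 35.3% and 28% passed, in the same order of groups. TRIB3, a pseudokinase induced by cell stress, had 5.16 and 4.47 FPKM in JQ1, 4.10 and 5.62 FPKM in Molib, and 13.4 and 15.0 FPKM in DMSO (adjusted p = 0.00129 and 0.0012). Both calls held without each library.

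BID had the widest range of group means of the members in this table (2.38 on the log2 scale). The genes most like it over the 8 libraries, among 9167 with a mean of at least 5 FPKM, were HSD17B8 (r = 0.996), COMMD7 (0.995) and MAMLD1 (0.995). The 8 libraries fall into 4 conditions here too, and this ranking is a description only.

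In the CTRL table the libraries stand apart by kind. Of 4561 genes above 10 FPKM in all 16 libraries of the other tables, 0 were listed at 0 in either MW_JQ1 library, against 90 and 379 in JQ1 and 398 and 120 in CTRL. The most abundant gene was EEF1A1 or S100A6 in MW_JQ1 and RN7SL1, a signal recognition particle RNA, in the 4 JQ1 and CTRL libraries. The kind of library and the MW group therefore cannot be told apart. By limma 0 of 9 members passed in any of the 3 comparisons. In MW_JQ1 against JQ1, where 15.2% of 13261 genes passed (13.5% higher and 1.62% lower), 2 members had an unadjusted p under 0.05. In MW_JQ1 against CTRL, where 15.1% passed (13.3% higher and 1.88% lower), 0 had one. In JQ1 against CTRL 1 had one, and 0% of genes passed, with 2048 at an unadjusted p under 0.05.

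**Figure D5:**
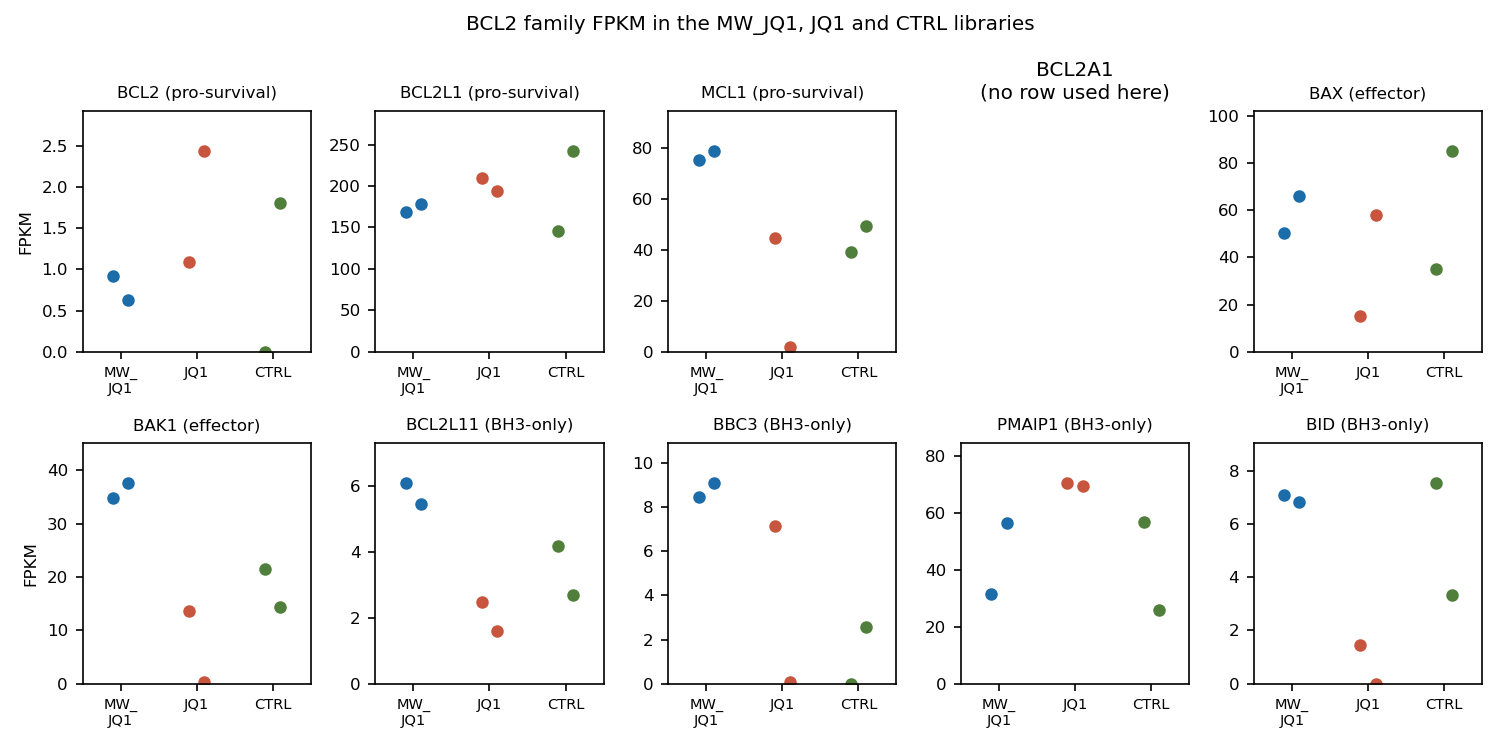
FPKM (y axis, from 0, scaled per gene) of 9 members in each library of MW_JQ1, JQ1 and CTRL; points are single libraries. MCL1 lies at 75.4 and 78.9 FPKM in MW_JQ1 and 44.6 and 1.82 FPKM in JQ1, while PMAIP1 lies at 31.5 and 56.5 FPKM in MW_JQ1 and 70.6 and 69.5 FPKM in JQ1.

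METTL3 had 212 and 234 FPKM in MW_JQ1, 11.8 and 0 FPKM in JQ1, and 31.2 and 1.18 FPKM in CTRL. BCL2L1 again led the members, with 168 and 178 FPKM in MW_JQ1, 210.1 and 194 FPKM in JQ1, and 146 and 243 FPKM in CTRL. MCL1 had 75.4 and 78.9 FPKM in MW_JQ1, 44.6 and 1.82 FPKM in JQ1, and 39.2 and 49.3 FPKM in CTRL. BAK1 had 34.7 and 37.7 FPKM in MW_JQ1, 13.7 and 0.358 FPKM in JQ1, and 21.5 and 14.4 FPKM in CTRL. Both genes were thus higher in each MW_JQ1 library than in any other of the 6, and neither passed (adjusted p = 0.251 for MCL1 and 0.174 for BAK1 against JQ1).

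BID had 7.10 and 6.81 FPKM in MW_JQ1, was listed at 1.46 and 0 FPKM in JQ1, and had 7.54 and 3.34 FPKM in CTRL. Its 2 JQ1 libraries were below the other 4 (JQ1 over CTRL -1.96 ± 0.72, unadjusted p = 0.0441 and adjusted p = 0.307 by limma). BBC3 had 8.46 and 9.11 FPKM in MW_JQ1 and was listed at 7.15 and 0.0852 FPKM in JQ1 and 0 and 2.55 FPKM in CTRL, and the last 2 pairs overlap. BAX (50.3 and 66.1 FPKM in MW_JQ1, 14.9 and 57.9 in JQ1, 35.0 and 85.2 in CTRL) and PMAIP1 (31.5 and 56.5, 70.6 and 69.5, 56.7 and 26.0 FPKM in the same order of groups) did not pass in any comparison, and the PMAIP1 pair was close in JQ1 alone. BCL2L11 (6.10 and 5.45, 2.48 and 1.60, 4.17 and 2.68 FPKM) and BCL2 (0.923 and 0.629, 1.09 and 2.44, 0 and 1.81 FPKM) were low throughout. Groups did not overlap for 8 of 9 members in MW_JQ1 against JQ1 (67.5% of all genes), 4 of 9 in MW_JQ1 against CTRL (64.5%) and 4 of 9 in JQ1 against CTRL (33.7%). The authors' deposited table gives BBC3 a log2 fold change of 9.20 with an adjusted p of 0.0002, the only 1 of 9 members with one under 0.05, and its columns do not name the groups or the direction.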

How the data were processed

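RNA was sequenced from 22 libraries of MDA-MB-231 cells. The tools HISAT2 2.1.0, Cufflinks 2.2.1 and CASAVA 1.4 and the build hg38 are named, per the submitters' processing notes, without saying what each did. The authors deposited 3 tables of FPKM per gene. The unit is named for 1 table and inferred for the others from their format and sums. The CTRL table also holds the authors' deposited signal means, log2 fold changes and p-values, and whether replicates were pooled there is not given in the sources used here. Depth is unknown for these tables. The commonest low step of FPKM, taken as 1 fragment, differs at most 1.41-fold between the 16 libraries of the first 2 tables. That spread does not give the depth itself, and the CTRL table was not included. Each group holds only 2 libraries, which limits precision.

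FPKM were analysed as log2(FPKM + 1) with limma 3.58.1 in R 4.3.3, trend on, separately in each table because the tables were made separately. All groups of a table entered 1 fit. Genes with at least 1 FPKM in 2 libraries were tested (14638, 14936 and 13261), and p-values were adjusted by Benjamini-Hochberg over all of them. The table's 2 JQ1 columns without a number were matched to samples by elimination. The fit was tested on simulated data with the same libraries. Among 100 genes changed by 1 on the log2 scale it recovered 62 in shM3 against B5, 64 in JQ1 against DMSO and 2 in JQ1 against CTRL. Groups follow the labels. Alternatives were other pseudocounts (0.1 and 5), no filter, median scaling, only the groups compared, replicate number as a block, and leaving out each library. All 10 members are named. From each other list, up to 4 called genes of smallest adjusted p could be named. Some items are not reported here. The members and lists were chosen with earlier results of these data known. Promoter and motif work used RefSeq windows and GENCODE transcripts on GRCh38, with Python 3.11.15.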

Additional observations from a re-analysis of the deposited data

Results flagged for a closer look

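BAK1 and BID are listed by a rule. It asks that I-BET151-labelled libraries and those of JQ1 or Molib lie on opposite sides of DMSO, and that their direct difference passed. The p-values and the lack of overlap below therefore follow from the rule and are no further support. BAK1 was higher than DMSO under the I-BET151 label and lower in JQ1, though the JQ1 call was lost without any single library. In Molib it did not pass against DMSO (limma, adjusted p = 0.16). The libraries labelled I-BET151 lay above JQ1 by 1.33 and above Molib by 1.14 on the log2 scale (limma, adjusted p = 0.000206 and 0.000412). BID was higher than DMSO under the I-BET151 label and lower in JQ1 and Molib, with differences of 2.38 from JQ1 and 2.34 from Molib (adjusted p = 5.29e-05 and 5.59e-05). HEXIM1 in the same libraries, 10.3 and 6.37 FPKM under the I-BET151 label and 26.5 and 29.4 FPKM in DMSO, also went against the other inhibitors.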

How the results depend on the processing

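No member reversed its direction past the threshold under any alternative. Of 50 calls over the 15 comparisons, 29 held in each fit without a library in which the gene could be tested, and 28 under every setting. With the 2 groups alone in the fit, 3 members passed in shM3_CD against shM3 and 7 in Molib against DMSO, where BAX, BCL2L11 and PMAIP1 gained a call (adjusted p = 0.0435, 0.0208 and 0.0342). With no filter, 3 passed in shM3_WT against B5, where BCL2L1 (adjusted p = 0.103) and BCL2L11 (0.0592) lost theirs. No filter also ended the calls of PMAIP1 in the I-BET151 label against JQ1 (0.0696) and in shM3_WT against shM3_CD (0.0701), BAX in JQ1 against DMSO (0.0543) and BID in shM3_CD against shM3 (0.0947). The 2 groups alone ended those of PMAIP1 in the I-BET151 label against JQ1 (0.0887), shM3_CD against shM3 (0.0631) and shM3_WT against shM3_CD (0.0808), and BID in shM3_CD against shM3 (0.0879). They also gave calls to BID in shM3_WT against shM3 (0.0117) and against B5 (0.0164), BCL2L1 in shM3_CD against B5 (0.0396) and BCL2L11 in the I-BET151 label against Molib (0.029). Median scaling ended BCL2L1 in shM3_WT against B5 (0.0865) and BCL2 in the I-BET151 label against Molib (0.05 after rounding), which a pseudocount of 5 also ended (0.0649). A pseudocount of 0.1 ended BCL2A1 in shM3_WT against shM3_CD (0.121). Leaving out single libraries gave 2 to 3 calls in shM3 against B5, 1 to 3 in shM3_CD against shM3, 3 to 4 in shM3_WT against shM3_CD, 3 to 4 in shM3_WT against B5, 2 to 4 in JQ1 against DMSO, 2 to 3 in Molib against DMSO, 3 to 4 in the I-BET151 label against Molib, and 0 to 2 in MW_JQ1 against JQ1 (2 without JQ1 replicate 1). The cause was not tested.

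Same-numbered libraries did not deviate together (r from -0.03 to 0.04 in the knockdown table, -0.12 to 0.04 in the DMSO table and -0.03 to 0.03 in the CTRL table). Such values show no strong common shift, and cannot tell whether same-numbered libraries were made in parallel. With the replicate block, 4 of 117 values lost their call (BID in shM3_CD against shM3 at adjusted p = 0.0537, BCL2L1 in shM3_WT against B5 at 0.0547, MCL1 in Molib against DMSO at 0.0978 and BCL2 in the I-BET151 label against Molib at 0.0919), and BCL2L11 gained one in Molib against DMSO (0.044) and in the I-BET151 label against Molib (0.025). No paired analysis was possible for JQ1 in the DMSO table because its columns carry no number. Scaling by the median moved the share of higher calls over all genes to 52.4% from 39.5% in shM3_WT against shM3_CD and to 50.6% from 39.4% in shM3_WT against B5. In JQ1 against CTRL 0 genes were called, and the simulated fit of that comparison recovered 2 of 100.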
